A study of Mus musculus with 7 samples.

Results

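Genes of the calcium pumps of the sarcoplasmic reticulum, of the small proteins that regulate them and of the proteins that buffer calcium were followed in quadriceps muscle of WT and AR113Q mice. They were 10 of the 31044 gene names on the array: the pumps Atp2a1, Atp2a2 and Atp2a3, the pump inhibitors Sln and Pln, and the calcium-binding proteins Casq1, Casq2, Pvalb, Hrc and Srl. Every probe outside the controls that carried one of these names, or whose transcript accession now has one of them, was taken, which gave 12 probes, with 2 each for Atp2a2 and Pvalb. Total RNA of whole quadriceps from C57BL/6 mice aged 3 months (90 days) was labelled with Cy3 and hybridized to single-dye Agilent arrays, 4 of WT and 3 of AR113Q mice with 1 mouse per array. AR113Q mice carry an androgen receptor gene with human sequence and an expanded CAG repeat, knocked into the mouse locus as a model of spinobulbar muscular atrophy, an inherited disease of motor neurons and muscle in which the androgen receptor has a lengthened glutamine stretch. The knock-in is not limited to muscle, so muscle and motor neurons both carry it. The labels call the control animals WT, while the study's text also describes a knock-in control line with a shorter repeat, and the sources used here do not settle which of them the 4 control arrays hold. The study reports that male mice were used, and the labels of the arrays give no sex. The age lies before motor symptoms in this line.

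The sarcoplasmic reticulum stores the calcium that a muscle fiber releases to contract, and SERCA pumps return it to the store at the cost of ATP. Fast fibers mainly use SERCA1, encoded by Atp2a1, slow fibers and heart use SERCA2, encoded by Atp2a2, and SERCA3, encoded by Atp2a3, is best known outside muscle, in blood cells, endothelium and epithelia. Sarcolipin (Sln) and phospholamban (Pln) are short membrane peptides that bind the pump and lower its activity, and sarcolipin also makes the pump hydrolyse ATP without moving calcium. Inside the store calcium is held by the calsequestrins Casq1 and Casq2, by the histidine-rich calcium-binding protein Hrc and by sarcalumenin (Srl), while parvalbumin (Pvalb) takes up calcium in the cytosol of fast fibers.

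Values are log2 of the background-subtracted spot intensity after quantile normalization, so that 1 unit is a factor of 2, and differences are AR113Q minus WT. Because the array probes differ in how well they hybridize, levels were compared between arrays for 1 probe, and signal was set against that of another probe only to choose the brightest probe of a gene and for the differences within an array described below. The sequences of 3 probes that lie in coding sequence are given because the lowest log2 fold change of the set, the decrease of Atp2a1 and one of the increases of Atp2a2 were read through them. The array annotation places the Atp2a1 probe on the minus strand of mm9 at chr7:133591703-133591762 and this Atp2a2 probe on the minus strand at chr5:122910660-122910719, and it gives the Casq1 probe no genome position.
Casq1 probe: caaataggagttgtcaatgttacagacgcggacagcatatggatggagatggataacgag
Atp2a1 probe: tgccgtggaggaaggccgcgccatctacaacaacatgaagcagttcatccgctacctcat
Atp2a2 probe 2: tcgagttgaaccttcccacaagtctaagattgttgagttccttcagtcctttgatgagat

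At least 1 reading frame of each of these 60 base sequences was free of stop codons. The second Atp2a2 probe lies 2567 bases into the transcript and its array annotation lists 2 coding RefSeq transcripts, whereas the first Atp2a2 probe lies near the transcript's end, at 4073 bases, and has 1 coding transcript listed. Both are described as probes of transcript variant 2.

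Between 47.7% and 55.9% of all probes were well above background on an array, and no spot was saturated. Probes were tested where 3 or more of the 7 arrays showed them well above background, which held for 21002 of 39429 probes and for 11 of the 12 probes of the set, all but the Pln probe. None of the spots of the set was marked as an outlier. The arrays lay on 5 slides with 1 scan day. A single slide held both, with the arrays of WT replicate 2 and AR113Q replicate 1 on it, and the difference between these 2 arrays is given below as the value within a slide, with no error of its own. Nothing in the sources says that the array numbers pair the animals.

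In AR113Q muscle Sln rose most of the set, Atp2a2 rose on both of its probes, and Casq1, Pvalb on 1 of 2 probes, Srl, Hrc and Atp2a1 fell. By limma with Benjamini-Hochberg adjustment over all 21002 probes, 3 of the 11 tested probes (2 genes) were higher in AR113Q at an adjusted p of at most 0.05, a call that 22.2% of all tested probes also had, and 5 probes (5 genes) were lower, against 21.6% of all tested probes. With the added threshold of a log2 fold change of 1 or more in size, 3 probes (2 genes) were higher, against 12.2% of all tested probes, and 3 probes (3 genes) were lower, against 12.6%. The values of the genotypes did not overlap for 8 of the 11 probes, against 49.6% of all tested probes. The median log2 fold change of the 11 probes was -0.13 and that of all tested probes 0.015, and the median size without regard to sign was 1.02 and 0.55. These shares describe a set of 11 probes in a comparison in which a large part of the transcriptome was called. Whole muscle was measured, so fewer fibers of a type and less RNA per fiber cannot be told apart.

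**Figure D1:**
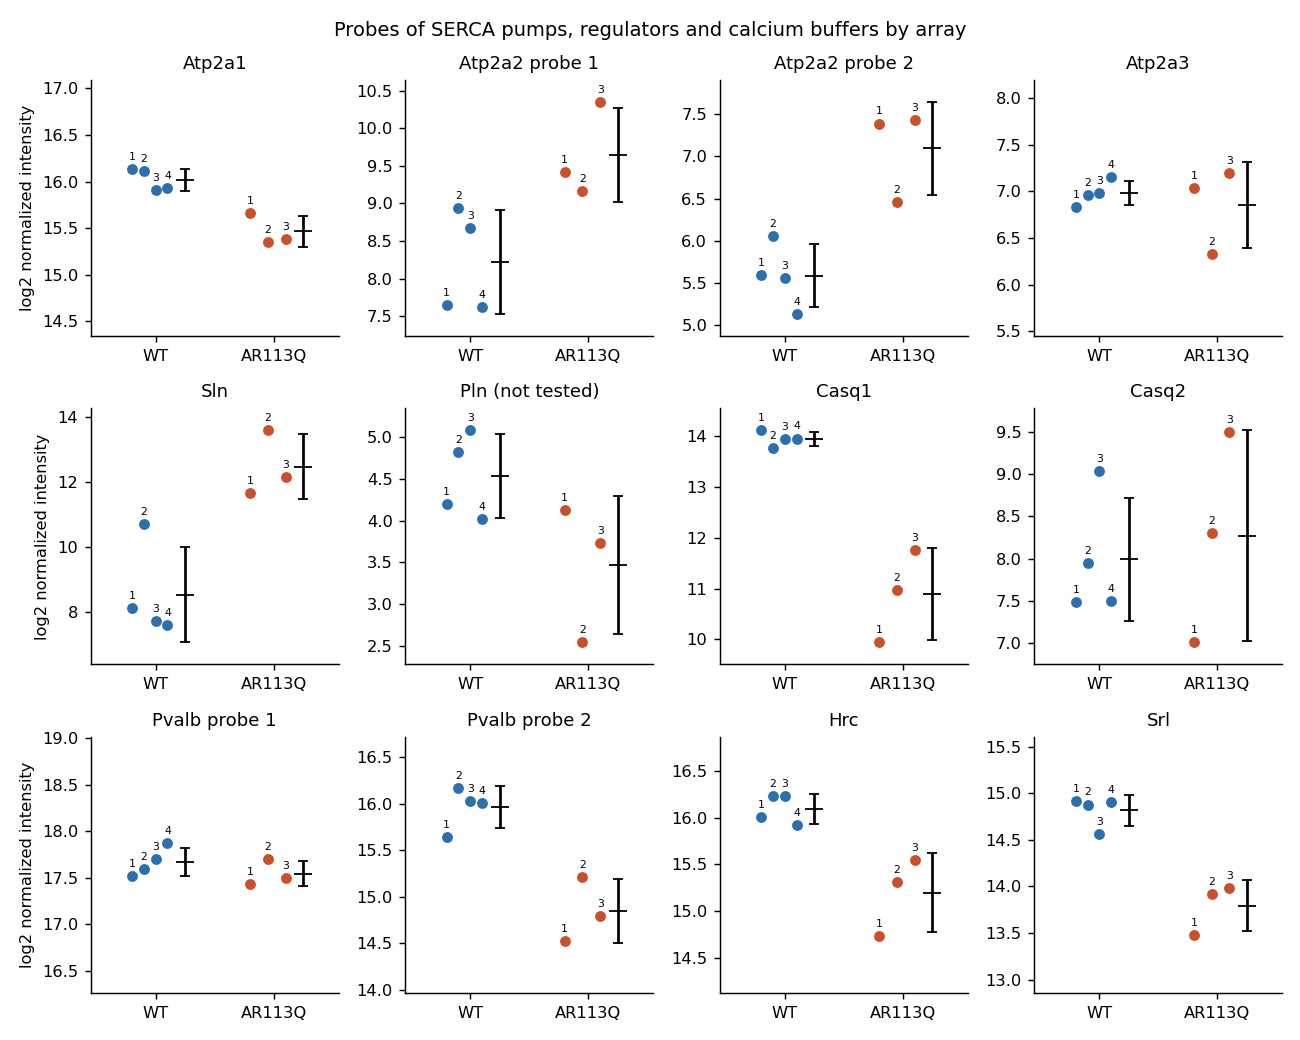
Log2 normalized intensity (vertical axis, a range of its own in each panel) of the 12 probes on 4 WT arrays (blue) and 3 AR113Q arrays (orange), each point numbered by its replicate, with the mean and SD as black bars. The AR113Q arrays lie below all WT arrays for Casq1, Atp2a1, Hrc, Srl and Pvalb probe 2 and above them for Sln and both Atp2a2 probes.

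Among the pumps, Atp2a1, the fast-fiber SERCA, was bright on every array, at 16.13, 16.11, 15.91 and 15.93 in WT replicates 1 to 4 and at 15.66, 15.35 and 15.38 in AR113Q replicates 1 to 3. All AR113Q values lay below all WT values. The decrease was small, with a log2 fold change of -0.56 ± 0.16 (SE), a 1.47-fold lower signal (limma adjusted p = 0.0206), and the value within the shared slide was -0.45. Without WT replicate 1, WT replicate 2 or AR113Q replicate 2 the log2 fold change hardly moved, at -0.51, -0.52 and -0.52, but the adjusted p rose past the threshold, to 0.0644, 0.0597 and 0.0560.

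Atp2a2, the main SERCA of slow fibers and heart, moved the other way. Its second probe, in the coding sequence, read 5.59, 6.05, 5.56 and 5.13 in WT and 7.39, 6.46 and 7.43 in AR113Q. The groups did not overlap, and the log2 fold change was 1.51 ± 0.30 (SE), 2.85-fold higher in AR113Q (limma adjusted p = 0.00472), with 1.34 within the shared slide. Every array left out in turn kept this call, with log2 fold changes from 1.33 to 1.83. This probe is dim, and its size depended on the background step: it was 0.76 with normexp correction, 0.81 with no background subtraction and 0.52 in the deposited normalized table, past the adjusted p in each (0.00608, 0.00652 and 0.0133). The first probe, near the end of the transcript, read 7.65, 8.94, 8.67 and 7.61 in WT and 9.41, 9.16 and 10.35 in AR113Q. These values did not overlap either but were more spread, with WT replicates 2 and 3 close to the lowest AR113Q array. The log2 fold change was 1.42 ± 0.42 (SE), 2.68-fold (limma adjusted p = 0.0246), and the value within the shared slide was 0.47. This call was lost without WT replicate 1, WT replicate 4, AR113Q replicate 1 or AR113Q replicate 3 (adjusted p from 0.0501 to 0.0749).

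Atp2a3, the SERCA of non-muscle cells, was dim and did not separate the genotypes. It read 6.83, 6.96, 6.99 and 7.16 in WT and 7.04, 6.33 and 7.19 in AR113Q, where replicate 2 was the lowest of all 7 arrays. The log2 fold change was -0.13 with a 95% confidence interval of -0.65 to 0.39 (limma adjusted p = 0.673), and its sign turned, to 0.13, without AR113Q replicate 2.

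The pump inhibitors were measured at very different precision. Sln, which codes for sarcolipin, read 8.10, 10.69, 7.71 and 7.57 in WT and 11.66, 13.59 and 12.14 in AR113Q. Every AR113Q array lay above every WT array, but WT replicate 2 stood far above the other WT arrays. With a log2 fold change of 3.95 ± 0.78 (SE), Sln was 15.4-fold higher in AR113Q (limma adjusted p = 0.00475, 95% confidence interval of the log2 fold change 2.15 to 5.74), and 48th when all tested probes were ordered from the highest log2 fold change down. WT replicate 2 is also the WT array on the shared slide, so the value within the slide was only 0.97, the largest reduction among the called probes of the set. Leaving out each array in turn gave values from 3.38 to 4.68, the highest of them without WT replicate 2, and kept the call each time. Before normalization the spot intensities were 187, 1618, 188 and 170 in WT and 4138, 16035 and 5599 in AR113Q, each in the order of the replicate numbers.

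Pln, which codes for phospholamban, the inhibitor best known from heart and slow fibers, was near the detection limit. Its probe was well above background on 2 of 4 WT arrays and 0 of 3 AR113Q arrays. Values were 4.19, 4.82, 5.08 and 4.02 in WT and 4.13, 2.55 and 3.73 in AR113Q, with AR113Q replicate 1 inside the WT range. No fold change is given for it, since the values of both groups lay partly or wholly at background.

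Of the calsequestrins, the main calcium buffers inside the store, Casq1 had the lowest log2 fold change of the set and Casq2 showed no shift of its mean that its spread could resolve. Casq1, the form of skeletal muscle, read 14.11, 13.75, 13.95 and 13.95 in WT, within a narrow range, and 9.94, 10.97 and 11.76 in AR113Q. The gap between the lowest WT and the highest AR113Q array was wider than the spread of either group. The log2 fold change was -3.05 ± 0.37 (SE), an 8.26-fold lower signal (limma adjusted p = 0.000606), 183rd from the lowest among all tested probes. It was -3.81 within the shared slide and between -3.47 and -2.59 with 1 array left out, and the call held each time. AR113Q arrays differed among themselves more than WT arrays did, with an SD of 0.91 against 0.14.

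Casq2, the calsequestrin of heart and slow fibers, read 7.49, 7.95, 9.03 and 7.50 in WT and 7.01, 8.30 and 9.50 in AR113Q. The groups overlapped throughout, and both the lowest and the highest of the 7 arrays were AR113Q. The log2 fold change was 0.28 (95% confidence interval -1.08 to 1.63, limma adjusted p = 0.730). Its sign depended on AR113Q replicate 3, without which it was -0.34, and the value within the shared slide was -0.94.

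Hrc and Srl, the other calcium-binding proteins of the store, both fell. Hrc read 16.00, 16.23, 16.24 and 15.92 in WT and 14.74, 15.31 and 15.55 in AR113Q, with no overlap. Its log2 fold change was -0.90 ± 0.22 (SE), 1.87-fold lower (limma adjusted p = 0.0113), and -1.50 within the shared slide. Srl read 14.91, 14.88, 14.56 and 14.91 in WT and 13.48, 13.92 and 13.98 in AR113Q, also without overlap, although WT replicate 3 was below the other WT arrays. Its log2 fold change was -1.02 ± 0.18 (SE), 2.03-fold lower (limma adjusted p = 0.00307), and -1.40 within the shared slide. Both calls held with any 1 array left out, with ranges of -1.09 to -0.68 for Hrc and -1.11 to -0.88 for Srl. AR113Q replicate 1 had the lowest value of all arrays for Casq1, Hrc and Srl, and also for Casq2 and both Pvalb probes.

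Parvalbumin gave different answers on its 2 probes. The brighter one, which starts 440 bases into the transcript, read 17.52, 17.60, 17.70 and 17.87 in WT and 17.44, 17.70 and 17.50 in AR113Q, overlapping values with a log2 fold change of -0.13 (95% confidence interval -0.49 to 0.23, limma adjusted p = 0.534). The other, which starts 842 bases into the transcript, read 15.65, 16.17, 16.03 and 16.01 in WT and 14.53, 15.21 and 14.80 in AR113Q. There the groups did not overlap, and the log2 fold change was -1.12 ± 0.21 (SE), 2.17-fold lower (limma adjusted p = 0.00371), with -1.64 within the shared slide and -1.32 to -0.98 with 1 array left out. The brighter probe lies at the top of the normalized scale. There quantile normalization sets the brightest probes of each array to shared values, which can shrink a difference. With each array scaled to its 75th percentile in place of quantile normalization the brighter probe also passed, at -0.72 (limma adjusted p = 0.0395).

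**Figure D2:**
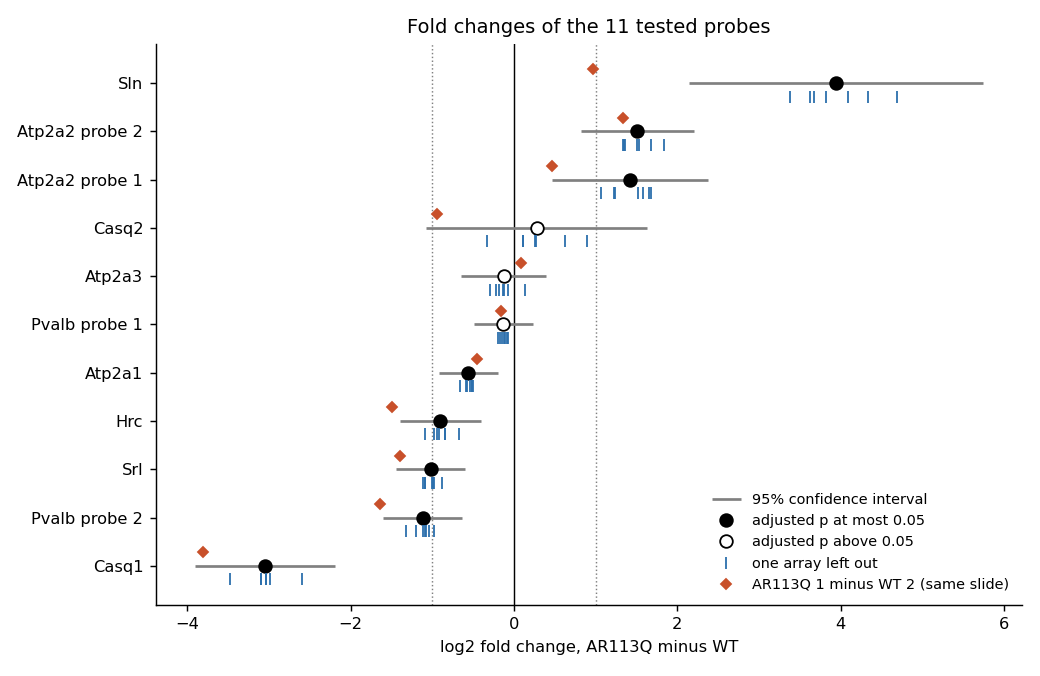
Log2 fold change, AR113Q minus WT, of the 11 tested probes (circles, filled where the limma adjusted p is at most 0.05) with 95% confidence intervals, the values with each of the 7 arrays left out (blue ticks) and the difference between the 2 arrays on the shared slide (orange diamonds). Dotted lines mark a log2 fold change of -1 and 1. The interval of Casq1 lies between -3.90 and -2.19 and that of Sln between 2.15 and 5.74, and the Sln diamond, at 0.97, lies outside its interval.

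Fiber composition was read from 7 slow fiber markers, genes of slow myosin, slow troponins and slow tropomyosin. None of the 7 differed between genotypes by limma, but they differed widely between arrays within each genotype. Their mean log2 value was 7.23, 11.44, 11.29 and 7.42 in WT replicates 1 to 4 and 7.58, 7.17 and 12.72 in AR113Q replicates 1 to 3. WT replicates 2 and 3 and AR113Q replicate 3 were therefore high in slow markers and the other 4 arrays low. Myh7, the slow myosin heavy chain, spanned 4.95 to 12.56 in WT and 6.22 to 13.59 in AR113Q. Among 8 fast fiber markers Mylpf, a fast myosin light chain, was lower (-1.37, limma adjusted p = 0.00400) and 7 did not pass, with list means of 15.25 to 15.93 in WT and 15.14 to 15.91 in AR113Q.

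Atp2a2 and Casq2, which the study describes as expressed mostly in slow muscle, followed this split in part. Within WT, Atp2a2 probe 1 was higher on the 2 arrays high in slow markers (8.94 and 8.67) than on the other 2 (7.65 and 7.61), and within AR113Q it was highest on the array highest in slow markers (10.35). Atp2a2 probe 2 did not order by the slow markers, with 5.56 on WT replicate 3 against 5.59 on WT replicate 1 and with 7.43 on AR113Q replicate 3 against 7.39 on AR113Q replicate 1. Casq2 had its highest WT value on WT replicate 3 and its highest AR113Q value on AR113Q replicate 3, but read 8.30 on AR113Q replicate 2, lowest in slow markers, and 7.01 on AR113Q replicate 1. The AR113Q arrays low in slow markers read 9.41 and 9.16 for Atp2a2 probe 1, and the WT arrays low in them 7.65 and 7.61. Sln did not order by the slow markers: WT replicate 3, high in them, read 7.71, and AR113Q replicate 2, lowest in them, read 13.59. A fit with the mean of the slow markers as a covariate was added after the data had been seen. In it the log2 fold changes were 1.47 ± 0.17 (SE, adjusted p = 0.000719) for Atp2a2 probe 1, 1.53 (adjusted p = 0.00318) for probe 2, 3.97 (adjusted p = 0.00670) for Sln, -3.03 (adjusted p = 0.000785) for Casq1 and 0.33 (adjusted p = 0.516) for Casq2. The counts of called probes stayed at 8, and at 6 with the fold change threshold. For Atp2a2 probe 1 the SE fell from 0.42 to 0.17. The slope per log2 unit of the slow markers was 0.24 ± 0.037 (SE) for Atp2a2 probe 1, 0.11 ± 0.057 for probe 2 and 0.29 ± 0.086 for Casq2. After adjustment over all tested probes it passed for none of the 11 probes in this limma fit (adjusted p = 0.128, 0.589 and 0.410 for these 3). With 7 arrays, a slope that did not pass does not show that a probe is free of the slow markers.

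**Figure D3:**
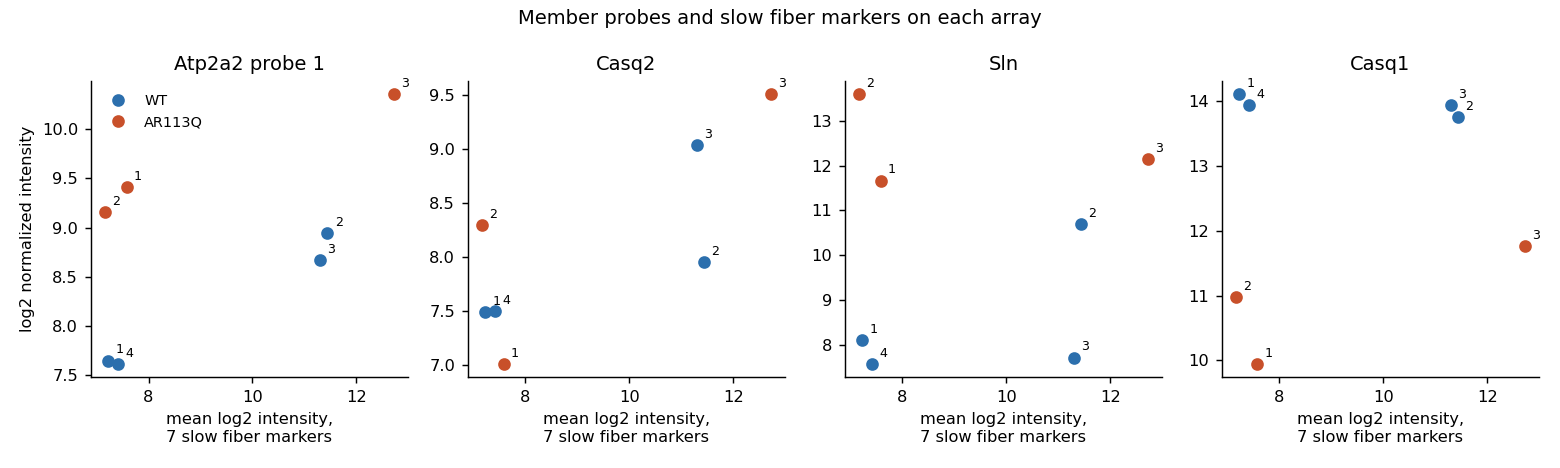
Log2 normalized intensity of Atp2a2 probe 1, Casq2, Sln and Casq1 (vertical axes) against the mean log2 intensity of 7 slow fiber markers on the same array (horizontal axes), for 4 WT (blue) and 3 AR113Q (orange) arrays numbered by replicate. Among the 4 arrays low in slow markers the 2 AR113Q arrays lie above the 2 WT arrays for Atp2a2 and below them for Casq1, while for Casq2 they lie on either side, and AR113Q replicate 3, at 12.72, has no WT array at a like level.

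Whether the fast and slow isoforms of a protein moved unequally was asked by the difference between their log2 values within each array, taken from the brighter probe of each gene. The level of such a difference has no meaning across probes, and only its change between genotypes was read. Atp2a1 minus Atp2a2 was 8.49, 7.17, 7.24 and 8.31 in WT and 6.24, 6.19 and 5.03 in AR113Q, without overlap, a shift of -1.98. Casq1 minus Casq2 was 6.62, 5.81, 4.91 and 6.45 in WT and 2.93, 2.68 and 2.26 in AR113Q, again without overlap, a shift of -3.32. Each shift had p = 0.0571 in a two-sided exact permutation test that doubles the smaller tail, the smallest that this form can give with 35 splits of 4 against 3 arrays. Counted instead as the share of splits with a difference at least as large in size, a form added after the data had been seen, the exact p was 0.0286 for each, again the smallest possible. The first shift drew on both genes, whereas the second came from Casq1, since the mean of Casq2 moved by 0.28 only. The genotypes already did not overlap for Atp2a1 or for the brighter Atp2a2 probe, in opposite directions. Both p values of that pair were therefore fixed before the test and add nothing to the calls of its genes. Casq1 minus Casq2 reuses the Casq1 values reported above.

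**Figure D4:**
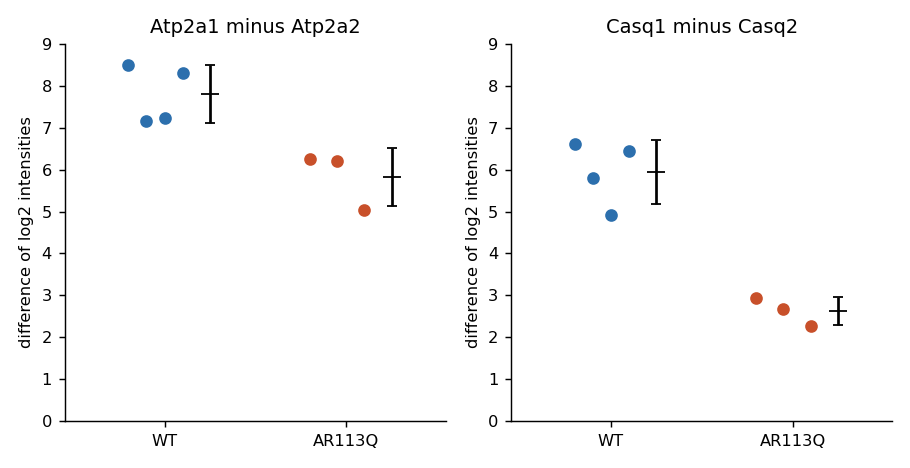
Difference of log2 intensities between 2 probes on the same array (vertical axes), Atp2a1 minus Atp2a2 at left and Casq1 minus Casq2 at right, for 4 WT (blue) and 3 AR113Q (orange) arrays, with mean and SD as black bars. All AR113Q arrays lie below all WT arrays, by shifts of the mean of -1.98 and -3.32.

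Other genes of calcium handling were taken as whole lists, each gene by its brightest tested probe, and their counts are to be read against the 22.2% of all tested probes that were called higher and the 21.6% called lower. Where a gene had several tested probes these could differ in their calls, as they did for 2 genes of the first list below, 2 of the second, 1 of the third, 4 of the fourth and 1 of the fifth. Ryr3, Trdn, Asph, Calm3, Atp2b1, Cidec and Ppbp are named after their values were seen. Of 11 further regulators of SERCA or of its inhibitors, 8 were measured and 2 fell, a share close to that of all probes. Camk2a, a chain of the calcium and calmodulin dependent kinase that can phosphorylate phospholamban and sarcolipin, had a log2 fold change of -3.97 (limma adjusted p = 8.56e-05), and Ppp1r3a, a glycogen- and reticulum-bound regulatory subunit of protein phosphatase PP1, had -1.25 (adjusted p = 0.00298). Mrln, which codes for the SERCA-inhibiting peptide myoregulin, did not pass (-0.35, adjusted p = 0.244), nor did the other kinase chains Camk2b, Camk2d and Camk2g, with log2 fold changes of 0.081, -0.20 and -0.048 on their brightest probes. Another tested probe of Camk2b and of Camk2d gave a different call. No probe carried the names Strit1, Arln or Erln.

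Among 16 other proteins of the sarcoplasmic reticulum, which include the release channels and their partners, 10 were lower and 1 higher in AR113Q, with a list median of -0.67. One of the 10, Ryr3, a release channel, was well above background on 3 WT arrays and 0 AR113Q arrays, so that its value is only a limit. The calls of Trdn and Asph, also among the 10, differed between their probes. Of the genes measured in both genotypes Sypl2, a protein of the triad junction, was lowest at -2.60 (limma adjusted p = 0.00102), and Tmem38b, which codes for a potassium channel of the reticulum membrane, was the 1 that rose, at 1.32 (adjusted p = 0.0164). Of 5 measured cytosolic calcium-binding genes 4 were lower, among them Calm3 with probes that differed in their calls, with the calmodulin gene Calm2 lowest at -1.60 (adjusted p = 0.000896) and S100a1, which binds SERCA and the release channel, highest at 0.38 (adjusted p = 0.129). Of 10 genes for calcium extrusion across the plasma membrane and store-operated entry, 2 were lower and 1 higher, shares no larger than those of all probes. They were the entry channel Orai1 at -1.86 (adjusted p = 0.000179), the calcium pump Atp2b1 at -0.43 (adjusted p = 0.0360) and the channel Orai2 at 1.27 (adjusted p = 0.0238), and the tested probes of Atp2b1 and of Orai2 differed in their calls. Of 13 genes for mitochondrial and Golgi calcium transport 1 was lower, Vdac3 at -0.64 (adjusted p = 0.0341), and the mitochondrial sodium-calcium exchanger Slc8b1, whose probe was well above background on 1 of 4 WT and 3 of 3 AR113Q arrays, did not pass (1.04, adjusted p = 0.0707). The median log2 fold changes of these last 3 lists were -1.23, -0.41 and 0.084, against 0.015 over all tested probes.

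**Figure D5:**
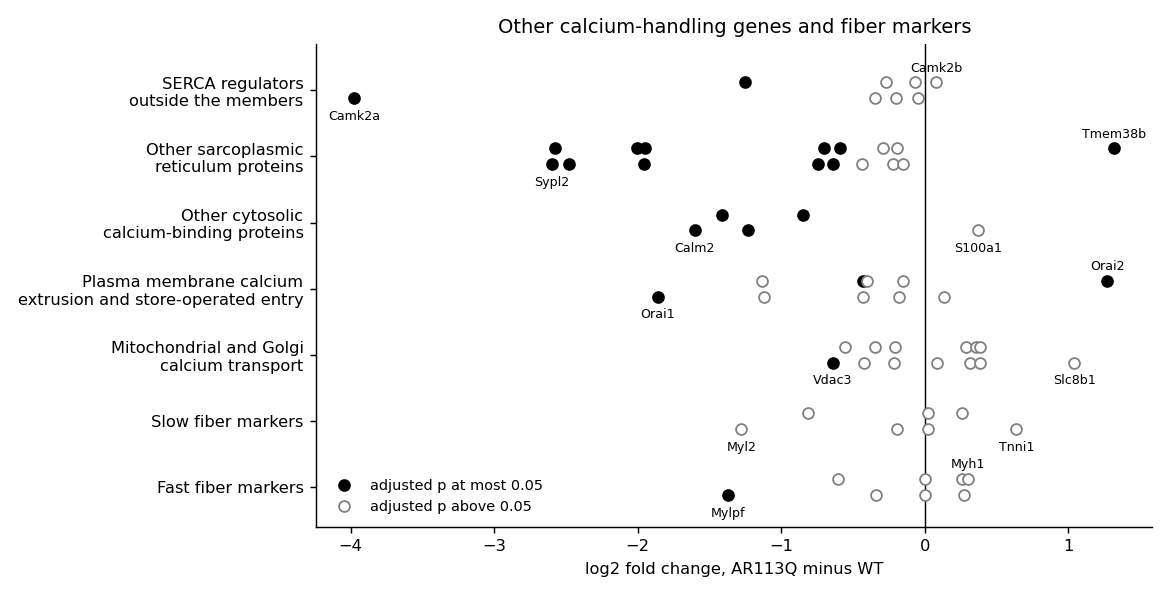
Log2 fold change, AR113Q minus WT, of the brightest tested probe of each gene in 5 lists of calcium-handling genes and 2 lists of fiber markers, filled where the limma adjusted p is at most 0.05. The gene with the lowest and the gene with the highest value of each list are named, from Camk2a at -3.97 to Tmem38b at 1.32.

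Markers of the cells of the muscle were read against the same background of 22.2% of all tested probes called higher and 21.6% called lower, to which several of the counts are close. Their part in the results above was not tested. Of 6 markers of skeletal muscle fibers 2 were lower, with means of 15.48 to 15.65 per WT array and 15.05 to 15.55 per AR113Q array, the lowest marker being Ckm at -0.80 and the highest Des at 0.41. For smooth muscle 3 of 5 markers were lower, with means of 10.98 to 11.18 in WT and 10.06 to 10.86 in AR113Q. For adipocytes 3 of 5 were lower, with 9.74 to 10.77 and 8.44 to 9.46, and 1 of the 3, Cidec, had probes that differed in their calls. Platelet markers, which matter for Atp2a3, had 2 of 4 lower, with 5.95 to 8.11 in WT and 5.28 to 5.79 in AR113Q. One of the 2, Ppbp, was well above background on 4 WT arrays and 1 AR113Q array only, and so was tested through its WT values. Endothelial markers had 2 of 7 higher, with overlapping means of 8.69 to 8.99 and 8.79 to 9.20, and macrophage markers 1 of 5 higher and 2 lower, with 8.66 to 9.38 and 8.35 to 8.96. Heart muscle expresses Atp2a2, Pln and Casq2, and atria express Sln. None of the 3 measured cardiac markers differed by limma, with means of 5.99 to 7.34 in WT and 7.08 to 7.51 in AR113Q, and the atrial and cardiac genes Nppa, Nppb and Myl7 were not above background on enough arrays to be tested. The median log2 fold change of the 3 was 0.89. The highest was Tnni3 at 0.99 (limma adjusted p = 0.0641), well above background on 1 WT and 2 AR113Q arrays only, and the lowest was Myl4 at 0.069.

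RefSeq promoter entries of build GRCm38.p6 were found for 7 of the 10 genes, Atp2a1, Atp2a3, Pln, Casq1, Casq2, Pvalb and Hrc. The 250 bases before the annotated start are given 5′ to 3′ on the gene's strand for 4 genes with a probe that fell and for Casq2, which had no call. Pvalb has 2 entries, of which the one printed has no E-box, while the other, at chr15:78204238-78204487, holds 1 (CATGTG) and no MEF2 site. Capitals mark matches to motifs that were searched on both strands: the E-box CANNTG, bound by myogenic factors such as MyoD, the MEF2 site, the CArG box and the androgen receptor half-site AGAACA. No CArG box was found, and no 2 matches overlap.
Casq1 upstream region, chr1:172219896-172220145, minus strand: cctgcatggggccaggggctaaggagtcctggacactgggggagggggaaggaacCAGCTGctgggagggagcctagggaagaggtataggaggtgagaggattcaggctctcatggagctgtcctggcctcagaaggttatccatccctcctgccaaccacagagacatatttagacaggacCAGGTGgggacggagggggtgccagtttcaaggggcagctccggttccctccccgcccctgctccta
Atp2a1 upstream region, chr7:126463074-126463323, minus strand: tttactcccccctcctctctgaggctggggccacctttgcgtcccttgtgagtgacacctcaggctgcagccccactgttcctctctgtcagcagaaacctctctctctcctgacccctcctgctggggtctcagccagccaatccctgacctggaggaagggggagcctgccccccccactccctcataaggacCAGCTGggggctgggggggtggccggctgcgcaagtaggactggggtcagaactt
Hrc upstream region, chr7:45335019-45335268, plus strand: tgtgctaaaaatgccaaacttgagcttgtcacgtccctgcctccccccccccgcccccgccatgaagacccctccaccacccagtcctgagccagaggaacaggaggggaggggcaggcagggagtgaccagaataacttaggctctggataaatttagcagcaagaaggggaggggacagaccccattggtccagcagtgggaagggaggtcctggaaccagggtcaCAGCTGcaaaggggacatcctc
Pvalb upstream region, chr15:78206401-78206650, minus strand: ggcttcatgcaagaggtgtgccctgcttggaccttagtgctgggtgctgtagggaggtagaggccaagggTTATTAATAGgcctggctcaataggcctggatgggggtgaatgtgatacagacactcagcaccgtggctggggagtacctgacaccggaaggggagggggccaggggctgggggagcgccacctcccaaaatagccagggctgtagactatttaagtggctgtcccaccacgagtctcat
Casq2 upstream region, chr3:102086165-102086414, plus strand: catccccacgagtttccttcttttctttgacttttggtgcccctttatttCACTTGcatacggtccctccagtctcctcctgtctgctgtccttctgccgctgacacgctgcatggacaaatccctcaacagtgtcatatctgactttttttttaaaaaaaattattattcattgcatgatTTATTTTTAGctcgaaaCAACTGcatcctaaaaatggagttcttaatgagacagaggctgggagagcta

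An E-box stood in these windows of Casq1 (CAGCTG and CAGGTG), Atp2a1 (CAGCTG), Hrc (CAGCTG) and Casq2 (CACTTG and CAACTG), and 66.2% of 32817 promoter windows of this length held at least 1. A MEF2 site stood in those of Pvalb and Casq2, against 2.92% of all windows. The androgen receptor half-site was in none of the 5 windows and in 16.1% of all windows, and of the 7 genes with an entry Pln had it. The E-boxes of Atp2a1, Hrc and Casq2 nearest to the start began 55, 22 and 52 bases upstream of it. A match describes letters only, and the arrays hold no measurement of binding.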

How the data were processed

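Total RNA from quadriceps of 4 WT and 3 AR113Q mice was measured on single-dye arrays. The authors extracted spots with Agilent Feature Extraction 10.7.3.1 and deposited a background-subtracted intensity per spot, not normalized between arrays, with the mean and background intensity. A second deposited table gives log2 values of 18592 probes, which the methods call quantile normalized. Here that intensity was put on the log2 scale, outlier spots were dropped, 43020 spots outside the controls were quantile normalized, and spots of a probe were averaged. Each probe was fitted with limma 3.58.1 under R 4.3.3 (lmFit, then eBayes, with Benjamini-Hochberg adjustment), a procedure tested on simulated data. RefSeq accessions named 28330 probes, through a GRCm38.p6 table used for names only, and positions of probes are on mm9 per the file headers. The members and lists were chosen with earlier results of these data known. Named are all probes of the members and the highest and lowest gene of each calcium-handling list and of the skeletal muscle and cardiac markers. Some regulators, fiber markers and untested cardiac genes are named too, as are the genes listed above as named after their values were seen. The extremes of the other marker lists are not given. Alternatives were other scaling, background correction, filters, probe summaries, the authors' values, array weights, an intensity trend, slide and replicate terms, and each array left out.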

Additional observations from a re-analysis of the deposited data

Results flagged for a closer look

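WT replicate 2 read 10.69 for Sln, with a median of 7.71 on the other 3 WT arrays, a gap wide enough for Dixon's test at the 95% level. The same array had the highest mean of the slow fiber markers among WT arrays, 11.44, and WT replicate 3, at 11.29, read 7.71 for Sln. The part of the slow markers in the Sln value was not tested beyond the fit with their mean as a covariate. WT replicate 3 read 14.56 for Srl, with a median of 14.91 on the other WT arrays. Each flag of this kind is met by chance in about 1 in 20 groups, and 12 probes were looked at in the 4 WT arrays only, since 3 arrays are too few for it.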

How the results depend on the processing

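Of the 8 called probes, 6 to 8 were called with 1 array left out, and with the fold change threshold 3 to 6 were, with 3 without AR113Q replicate 1 and 4 without WT replicate 1 or WT replicate 4. When slide was a fixed term, so that the genotypes were set apart by the pair on the shared slide alone, 0 and 0 of the 11 probes were called by limma, 6 had an unadjusted p of at most 0.05, and of all 21002 probes 0 were called and 7927 had such a p. In that fit Atp2a3 turned to 0.082 and Casq2 to -0.94. With slide as a random block 8 were called and 6 passed the fold change threshold. With 1 array left out the log2 fold change ranged from -0.30 to 0.13 for Atp2a3 and from -0.34 to 0.89 for Casq2. Array weights, low for AR113Q replicates 1 and 3 (0.42 and 0.41), left 7 calls and 3 past the fold change threshold. The replicate numbers did not pair the arrays (correlations of deviations 0.040, -0.016 and 0.16). A replicate block gave 7 calls, losing Atp2a1 (-0.59, adjusted p = 0.0648) and no other, and 5 past the fold change threshold, since Srl came to -0.99 (adjusted p = 0.0271). Over all probes, calls past both thresholds fell from 5211 to 2088 with normexp background correction (offset 50), 2264 with no background subtraction and 1592 of 18592 in the authors' values, while 8 of the 11 probes of the set were called in each, with 5, 5 and 4 past both. Calls also changed for Atp2a2 probe 1 with no filter on dim probes (adjusted p = 0.0677) and with array weights (adjusted p = 0.0551), and for Pvalb probe 1 with the mean over its probes (-0.62, adjusted p = 0.0201). Scaling to the 75th percentile moved the median of all probes by -0.052. Taking the exact p by the size of the difference left the isoform shifts at -1.98 and -3.32 and brought each p from 0.0571 to 0.0286. The number of arrays limits the precision, and for Pln the background did.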
